A study of Mus musculus with 2 samples.

Results

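Adenosine is a nucleoside signal that cells make from ATP, and 10 mouse genes of its production, breakdown and sensing were read in uterine stromal cells with and without Hand2. The genes were Nt5e, Entpd1, Entpd2, Enpp1, Alpl, Ada, Adk, Adora1, Adora2a and Adora2b, grouped around Nt5e, which encodes the cell-surface enzyme CD73. A probe set is the group of short probes that reads 1 transcript on the array. It was used when the platform annotation gave it exactly 1 gene symbol and that symbol was among these. Probe sets listed with several genes were left out. In all, 15 probe sets met this rule, for 6 of the 10 genes, among 18193 named genes on the array. Enpp1, which makes AMP from ATP, and the receptors Adora1, Adora2a and Adora2b had 0 such probe sets and were not analysed here. The set was proposed with earlier results of these arrays known, so every ratio between the genotypes below is a description.

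The study asked which stromal transcripts depend on Hand2, which encodes a transcription factor (basic helix-loop-helix class) made in uterine stroma. The Hand2-null group came from mice in which floxed Hand2 was combined with PRcre. This driver expresses Cre under the progesterone receptor gene, and therefore in every uterine cell type that uses that gene. The control group came from mice labelled Hand2 Floxed. The labels list Prcre, C57BL/6 and SV129 as a mixed background for both groups, so whether the control mice carried the Cre line cannot be read from them. All mice were on day 4 of pregnancy after mating with fertile males, the day of the vaginal plug being day 1. Uterine horns were digested to remove epithelial clumps, and the cells that attached to culture plates were kept. RNA was pooled by genotype over 5 mice per the series design, or 4 per the extraction protocol, and each pool was hybridized to 1 array. With 1 array per genotype differences carry neither an error nor a p-value, and they describe these 2 pools.

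Outside cells, ATP and ADP are cut to AMP by the ecto-nucleotidases that Entpd1 and Entpd2 encode. AMP is then cut to adenosine, mainly by CD73, and also by the tissue-nonspecific alkaline phosphatase that Alpl encodes. Adenosine acts on receptors that lower or raise cyclic AMP, or it enters cells through nucleoside transporters, where adenosine deaminase (Ada) turns it into inosine and adenosine kinase (Adk) returns it to AMP. In rodents, alkaline phosphatase activity is a marker of stromal cells that become decidua, and adenosine deaminase is abundant where mother and embryo meet.

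HAND2 and its dimer partners bind E-boxes, sites of the form CANNTG. The promoters of 4 measured members are shown to set the letters beside the ratios: Nt5e and Ada, whose signals were lower in the Hand2-null array, then Entpd1 and Adk, whose signals were higher. Each run is the 250 bases before a RefSeq start in GRCm38.p6, 5′ to 3′ on the strand of the gene, with every CANNTG in capitals. For Entpd1 and Adk, which have 2 starts each in the table, the first is shown.
Nt5e, chr9:88327359-88327608, plus strand: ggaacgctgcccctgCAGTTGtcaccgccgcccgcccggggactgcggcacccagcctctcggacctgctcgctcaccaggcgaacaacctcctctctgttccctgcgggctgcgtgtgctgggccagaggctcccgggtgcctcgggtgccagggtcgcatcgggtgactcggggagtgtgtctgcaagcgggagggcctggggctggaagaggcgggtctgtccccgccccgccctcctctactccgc
Ada, chr2:163750240-163750489, minus strand: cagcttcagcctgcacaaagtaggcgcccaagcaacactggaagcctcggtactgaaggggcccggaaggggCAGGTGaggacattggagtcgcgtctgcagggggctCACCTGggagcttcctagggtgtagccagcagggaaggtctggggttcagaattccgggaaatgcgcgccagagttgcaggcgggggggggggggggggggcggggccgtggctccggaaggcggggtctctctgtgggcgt
Entpd1, chr19:40612116-40612365, plus strand: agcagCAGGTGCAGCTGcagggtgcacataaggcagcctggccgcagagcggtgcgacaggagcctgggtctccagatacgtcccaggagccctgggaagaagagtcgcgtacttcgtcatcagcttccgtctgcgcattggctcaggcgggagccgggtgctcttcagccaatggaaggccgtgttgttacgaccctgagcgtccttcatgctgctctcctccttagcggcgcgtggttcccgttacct
Adk, chr14:21052324-21052573, plus strand: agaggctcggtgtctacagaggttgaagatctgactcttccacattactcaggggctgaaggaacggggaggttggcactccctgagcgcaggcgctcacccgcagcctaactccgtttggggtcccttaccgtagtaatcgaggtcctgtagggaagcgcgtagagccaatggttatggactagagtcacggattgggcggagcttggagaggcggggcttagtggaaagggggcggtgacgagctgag
The Nt5e run held 1 E-box, the Ada run 2, the Entpd1 run 2 and the Adk run 0. In the other promoters of the measured members, that of Entpd2 held 1, the second of Entpd1 held 0 and the second of Adk held 0. Of 32841 mouse promoter windows of the same length, 66.2% held at least 1 match to CANNTG, with a median of 1. The presence of these letters therefore did not divide the members by the direction of their ratio. The letters ACGTG, 1 form of the core of the hypoxia response element, were searched on both strands and overlap CANNTG in the word CACGTG. Among promoters of the measured members, ACGTG occurred only in that of Entpd2, at 2 places, against 16.6% of all windows. The unmeasured Enpp1 and the first start of Adora1 held 1 each. The other form, GCGTG, was not counted, and the Nt5e and Entpd1 runs hold it. A match is a run of letters and not a measured binding site.

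The values are MAS5 signals, linear intensities that the authors' software scaled to a common mean on each array. The floor, below which a signal was taken as too dim to compare, was the 60th percentile of non-control probe sets, at 67.5 in the Hand2-null array and 64.2 in the control array. A probe set was measured when it reached the floor in at least 1 array, and the brightest measured one stood for its gene. Signals of 10376 genes were measured, and 8 of the 15 probe sets of the members, which cover 5 of the 6 genes. Hand2 itself was at 38.5 in the Hand2-null array, under the floor, and at 1545 in the control array, by probe set 1436041_at. Its other probe sets were under the floor in both arrays, and where the probes lie relative to the deleted part is not given in the labels. Different probe sets of 1 gene differed with an SD of 0.19 in log2 ratio over 3665 genes, which stands in for an error and leaves out variation between mice. The middle 95% of measured genes had log2 ratios of Hand2-null over control between -0.66 and 0.93. The ratio of 3' to 5' control signal, a sign of RNA quality, was 1.05 in the Hand2-null array and 1.00 in the control array for Gapdh, and for Actb 1.499 in the Hand2-null array and 1.76 in the control array.

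Nt5e was lower in the Hand2-null array than in the control array. By its bright probe set, 1428547_at, the signal was 116 in the Hand2-null array and 334 in the control array, which is a log2 ratio of -1.53, or 2.88-fold lower. The signal stood at 1.72 times the floor in the Hand2-null array and at 5.19 times the floor in the control array, so the transcript was still measured without Hand2. Of the 10376 measured genes, 22 had a lower log2 ratio. Among genes in the same quartile of brightness the middle 95% of log2 ratios ran from -0.70 to 0.90, and Nt5e lay below that range.

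The other probe sets of Nt5e were under the floor in both arrays and give no fold. Probe set 1422974_at read 4.35 in the Hand2-null array and 27.0 in the control array. Probe set 1459023_at had 12.2 in the Hand2-null array and 0.866 in the control array. The dim probe sets thus pointed in opposite directions, and the value of Nt5e rests on 1 probe set.

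Alpl, the other AMP phosphatase among the members, was too dim to compare. Its single probe set read 47.6 in the Hand2-null array and 27.6 in the control array, which is 0.705 of the floor in the Hand2-null array and 0.430 of it in the control array. With the floor lowered to the 50th percentile Alpl became measured, the only member whose status changed in that way.

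**Figure D1:**
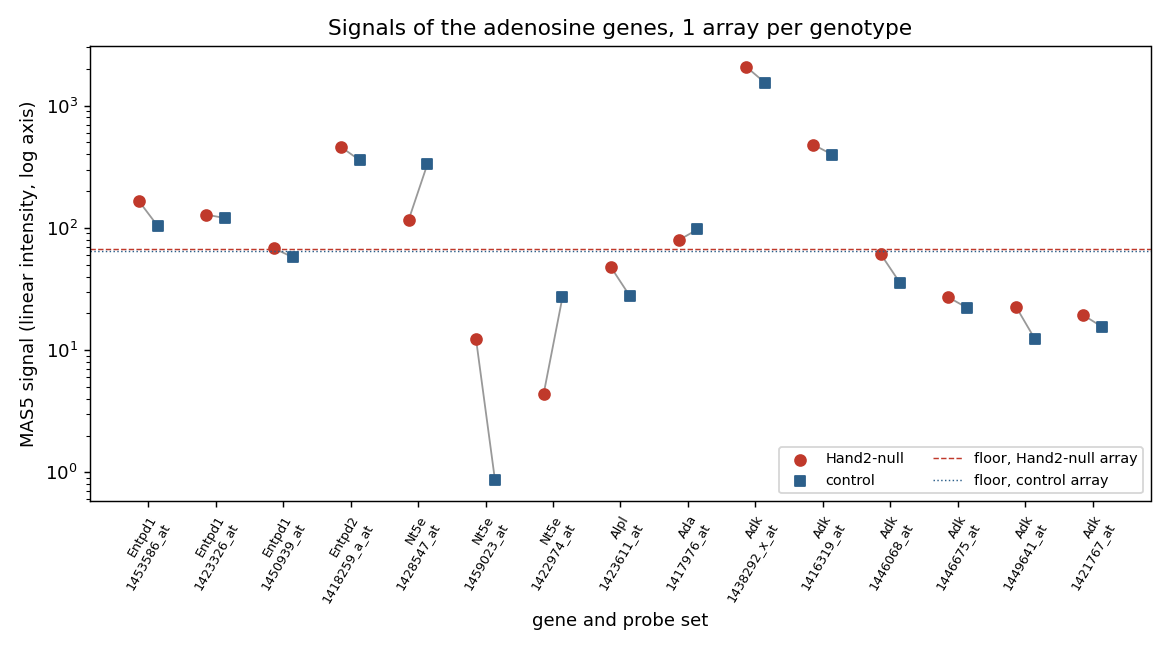
MAS5 signal (log axis) of the 15 probe sets of the adenosine genes, with the Hand2-null array as red circles and the control array as blue squares, joined by a line for each probe set. Lines across the plot are the floors, 67.5 for the Hand2-null and 64.2 for the control array. Only the Nt5e probe set 1428547_at, at 116 in Hand2-null against 334 in control, shows a difference of at least 2-fold above the floors.

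The enzymes that supply AMP to CD73 were not lower beside Nt5e. Entpd2, whose product favours ATP over ADP, had a signal of 458 in the Hand2-null array and 356 in the control array, a log2 ratio of 0.36 on its single probe set.

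Entpd1 encodes CD39, which takes ATP through ADP to AMP and is known from endothelium and leukocytes. By its brightest probe set, 1453586_at, it had a signal of 167 in the Hand2-null array and 104 in the control array, a log2 ratio of 0.68. Its second, 1423326_at, had 128 in the Hand2-null array and 120 in the control array, a log2 ratio of 0.09. The remaining one, 1450939_at, had 68.2 in the Hand2-null array and 57.7 in the control array, just above and just under the floors. The direction was the same in all 3, but they differed in size by more than the SD of 0.19 between probe sets of a gene. Averaged over the 3, the log2 ratio of Entpd1 was 0.29, and with a floor at the 75th percentile it was 0.03.

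The enzymes that remove adenosine went in opposite directions, neither by 2-fold. Adk had a signal of 2084 in the Hand2-null array and 1540 in the control array by its brightest probe set, 1438292_x_at, a log2 ratio of 0.44. Its second, 1416319_at, had 478 in the Hand2-null array and 397 in the control array, a log2 ratio of 0.27. The other 4 probe sets of Adk were under the floor in both arrays, between 19.3 and 60.6 in the Hand2-null array and between 12.3 and 35.6 in the control array, each with the higher signal in the Hand2-null array.

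Ada had a signal of 79.1 in the Hand2-null array and 97.1 in the control array, a log2 ratio of -0.29 on its single probe set. Both signals were close to the floors, at 1.17 times the floor in the Hand2-null array and 1.51 times in the control array. Its ratio lay well inside the middle 95% of its quartile of brightness, which ran from -0.69 to 0.99.

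Of the 5 measured members, 3 had a higher and 2 a lower signal in the Hand2-null array. Over all measured genes 4585 were higher and 5791 lower. The median log2 ratio of the 5 members was 0.36, beside -0.03 over all measured genes. That median was 0.27 without probe sets named _s_at or _x_at, the suffixes for probes shared with other transcripts, when Adk was read at 0.27. It was -0.012 when those named _a_at, the suffix for transcripts of 1 gene, were left out as well, since Entpd2 was then not measured. In all, 1 member, Nt5e, was at least 2-fold lower, where 0.742% of all measured genes were. The number at least 2-fold higher was 0, where 1.99% of all measured genes were. The members were chosen on this contrast, so nothing is read from these counts.

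The difference between 2 log2 ratios from the same pair of arrays does not depend on a common factor that scales one array to the other. By this measure Nt5e was lower relative to Entpd1 by a log2 difference of -2.21, relative to Adk by -1.96, relative to Entpd2 by -1.89 and relative to Ada by -1.23. With the second probe set of Entpd1 in place of the first the difference is smaller, since that probe set was at 0.09. The members thus differed in their ratios in this pair of arrays. The set was grouped around Nt5e with this contrast known, so nothing is read from the distance of Nt5e to the others.

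**Figure D2:**
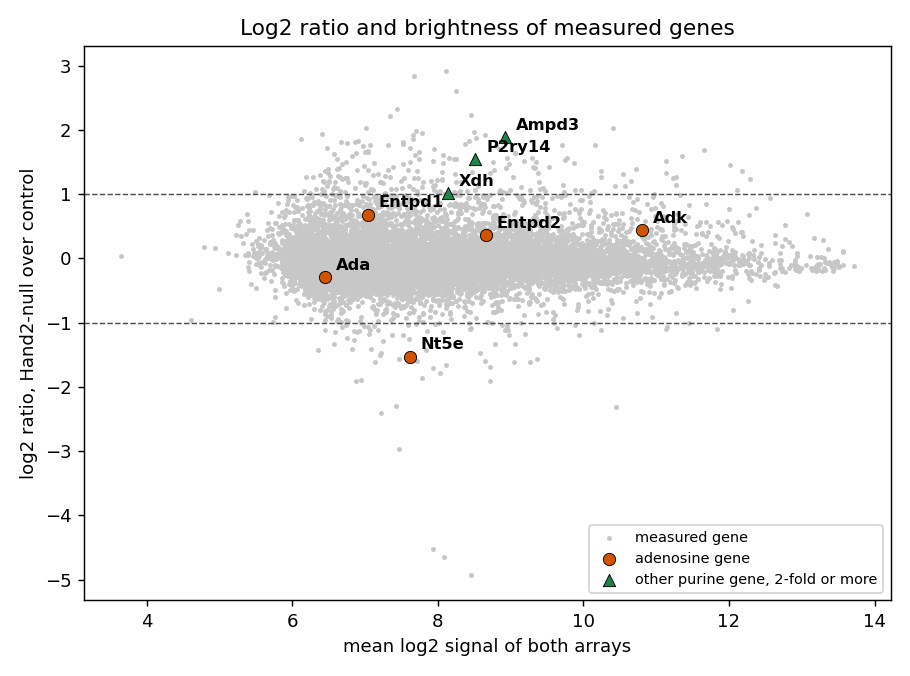
Log2 ratio of Hand2-null over control against the mean log2 signal of both arrays for the 10376 measured genes, in grey. The 5 measured adenosine genes are orange circles, the 3 other purine genes with at least a 2-fold difference are green triangles, and dashed lines mark 2-fold. Nt5e at -1.53 lies under the lower line and the other adenosine genes lie between the lines.

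The genes with the most similar pair of signals were found by the distance between pairs of log2 signals, over the 2 arrays and 9660 genes above the floor in both. The 4 nearest to Nt5e were Mest, an imprinted gene, at 121 in the Hand2-null array and 364 in the control array, then Scin, Lrrn1 and Krt23. Their log2 ratios were -1.59, -1.25, -1.57 and -1.20. A likeness over 2 arrays is only a likeness in 1 ratio and 1 level.

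The rest of purine handling was read from a list of 60 genes, of which 54 had a probe set with 1 gene and 33 were measured. By signal, 18 of the 33 were higher in the Hand2-null array and 15 lower, beside 4585 higher and 5791 lower over all measured genes. The median log2 ratio of the 33 was 0.03, beside -0.03 over all measured genes. A difference of at least 2-fold was seen upward in 3 genes and downward in 0, beside 1.99% and 0.742% of all measured genes. The 3 were Ampd3, P2ry14 and Xdh, each on a single probe set.

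Ampd3 encodes an AMP deaminase, which turns AMP inside cells into IMP and so away from adenosine. Its signal was 932 in the Hand2-null array and 252 in the control array, a log2 ratio of 1.89, or 3.70-fold higher, above that of 99.9% of measured genes. The related Ampd2 had 1226 in the Hand2-null array and 1198 in the control array, a log2 ratio of 0.03. The difference among AMP deaminases was thus seen in Ampd3 and not in Ampd2, and Ampd1, the muscle form, was under the floor in both arrays.

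Xdh, xanthine dehydrogenase, makes uric acid in the last steps of purine breakdown. Its signal was 402 in the Hand2-null array and 199 in the control array, a log2 ratio of 1.01, on the edge of the 2-fold threshold. Pnp, the phosphorylase that splits inosine to hypoxanthine, had 2083 in the Hand2-null array and 1498 in the control array, a log2 ratio of 0.48. The salvage enzymes Hprt and Aprt, which return bases to nucleotides, went the other way at log2 ratios of -0.42 and -0.35. The 11 measured genes of salvage and breakdown divided into 6 higher and 5 lower, and their median was 0.03.

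Among nucleotide receptors, P2ry14, a receptor for UDP-glucose and related UDP-sugars, had a signal of 624 in the Hand2-null array and 214 in the control array. This is a log2 ratio of 1.55, or 2.92-fold higher. P2rx6, a subunit of ATP-gated channels, was at 0.74 with a control signal at the floor. P2ry10, listed here by its name but known as a receptor for lysophosphatidylserine, had 197 in the Hand2-null array and 112 in the control array, a log2 ratio of 0.81. Of 15 genes on the list 6 were measured, 4 higher and 2 lower, and their median was 0.39, or 0.03 over the 5 without P2ry10. P2rx7, an ATP-gated channel of immune cells, was among the lower ones at -0.31.

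Nucleoside transporters carry adenosine across membranes, and 3 of 5 with a probe set were measured. Slc29a1, the main equilibrative transporter of the plasma membrane, had a signal of 199 in the Hand2-null array and 316 in the control array, a log2 ratio of -0.67. It has 1 probe set. Its ratio was the lowest of the 33 measured genes on the list, above 2.34% of all measured genes. Slc29a3, an intracellular transporter, was at 0.16 by its brighter probe set and at -0.90 by the other, so its direction is not settled.

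The other genes listed by family as ecto-nucleotidases and phosphatases had log2 ratios between -0.43 and 0.21. Of 6 measured, 3 had the higher and 3 the lower signal in the Hand2-null array, 0 of them by 2-fold. Their median log2 ratio was 0.09 after flooring and 0.15 over the 5 above both floors. Entpd6 had a signal of 55.8 in the Hand2-null array and 66.3 in the control array, which flooring turned to a log2 ratio of 0.025 because the floors differ (67.5 in Hand2-null and 64.2 in control). Acpp, an acid phosphatase that can also make adenosine from AMP, had a signal of 203 in the Hand2-null array and 273 in the control array, a log2 ratio of -0.43, and Enpp3 was at 0.21. The 5 measured intracellular nucleotidases lay between -0.25 for Nt5c3 and 0.15 for Nt5m. Dpp4, the membrane protein that anchors adenosine deaminase in humans, was at 0.12, and the release channel Panx1 was at -0.14. Adora3, the adenosine receptor outside the 10 genes, had probe sets under the floor in both arrays, the brighter at 20.6 in the Hand2-null array and 10.5 in the control array.

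**Figure D3:**
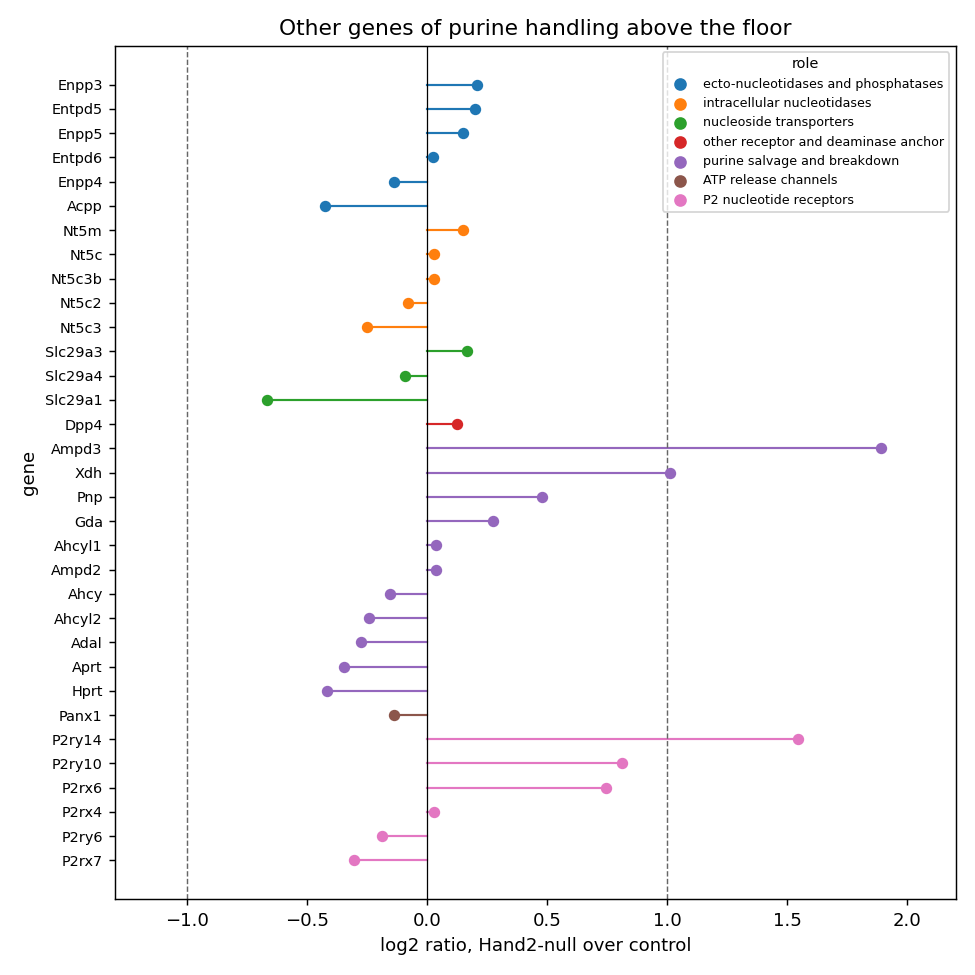
Log2 ratio of Hand2-null over control for the 33 measured genes of purine handling outside the 10 adenosine genes, 1 point per gene, coloured by role. Dashed lines mark 2-fold. Ampd3 at 1.89, P2ry14 at 1.55 and Xdh at 1.01 pass the upper line and no gene passes the lower one. Values are after flooring, which sets Entpd6 slightly above 0.

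The isolates held several cell types, and fewer cells of a type and less RNA per cell cannot be told apart in pooled RNA. All 13 stromal markers were measured, among them the collagens Col3a1 and Col1a2, with a summed signal of 62261 in the Hand2-null array and 57662 in the control array. These markers divided into 5 higher and 8 lower. The 5 higher were the collagen and matrix proteoglycan genes Col1a1, Lum, Dcn, Col1a2 and Col3a1, at log2 ratios from 0.12 to 0.98. The 8 lower were Vim, Pdgfra, Thy1, Hoxa10, Hoxa11, Pgr, Esr1 and Nr2f2, from -0.68 for Hoxa11 to -0.03 for Esr1. The higher sum in the Hand2-null array thus comes from the matrix genes alone. The median log2 ratio of all 13 was -0.20. The ratio of Nt5e, a gene chosen with this contrast known, was lower than that of every stromal marker read. Nothing about cell types is read from that.

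CD73 is also known from endothelium and lymphocytes. Of 10 blood endothelial markers, all measured, 2 were higher and 8 lower. Their median log2 ratio was -0.24, and their summed signal 3314 in the Hand2-null array and 4232 in the control array. Cdh5, the cadherin of blood vessels, was the lowest of them at -1.11, and the brightest, Esam and Emcn, were at -0.42 and -0.43. Of 9 T and natural killer cell markers with a probe set, 5 were measured, 2 higher and 3 lower, with a median of -0.34. The T cell marker Cd3g was the highest at 0.89, and Gzma was the lowest at -0.47. Cd3e, Cd2, Ncr1 and Prf1 were under the floor in both arrays. All 9 together summed to 1505 in the Hand2-null array and 1483 in the control array. The larger part of both sums was Ptprc, which leukocytes share. It read 821 in the Hand2-null array and 754 in the control array, a log2 ratio of 0.12. The excess of the sum in the Hand2-null array is smaller than that of Ptprc alone. Gzmb, the next brightest, was at -0.45. The 3 B cell markers with a probe set were under the floor in both arrays too, at a summed signal of 62.1 in the Hand2-null array and 45.8 in the control array. The part of these cells in the ratio of Nt5e was not tested.

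Markers of several other cell types were higher in the Hand2-null array, beside Entpd1, Adk, Ampd3, P2ry14 and Xdh. Smooth muscle markers were higher in 13 of 13 cases, by 2-fold or more in 9. Their median log2 ratio was 1.27, or 1.30 over the 12 above both floors, and their summed signal 58314 in the Hand2-null array and 28095 in the control array. All 5 lymphatic endothelial markers with a probe set were higher, with Lyve1 at 1.54, and 4 of them, above both floors, had a median of 1.14. Prox1 was measured through the Hand2-null array alone, at 126 against 33.5 in the control array. The 5 summed to 3582 in the Hand2-null array and 1516 in the control array. Of 5 mesothelial markers 2 were above both floors, Upk3b at 1.42 and Wt1 at -0.23. The other 3, Msln, Lrrn4 and Upk1b, were measured through the Hand2-null array alone, so their higher signal there follows from that filter. The 5 summed to 1139 in Hand2-null and 865 in control. Mast cell markers were higher in 2 of 3 measured, at a median of 1.37, while Kit was lower at -0.56. Tpsb2 and Fcer1a were under the floor in both arrays. All 5 summed to 791 in Hand2-null and 440 in control. Immediate-early genes are induced when cells are handled, and 11 of 12 were higher, at a median of 0.47 and sums of 43077 in Hand2-null and 33992 in control.

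The median of 12 epithelial markers was 0.18, with 8 higher and 4 lower and sums of 10056 in Hand2-null and 9428 in control. Macrophage markers had a median of -0.05 over 9, with sums of 7824 in Hand2-null and 8002 in control and Itgam under the floor. Pericyte markers had 0.02 over 6, with sums of 6014 in Hand2-null and 7155 in control. The part of any of these cell types in the ratios of the purine genes was not tested.

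**Figure D4:**
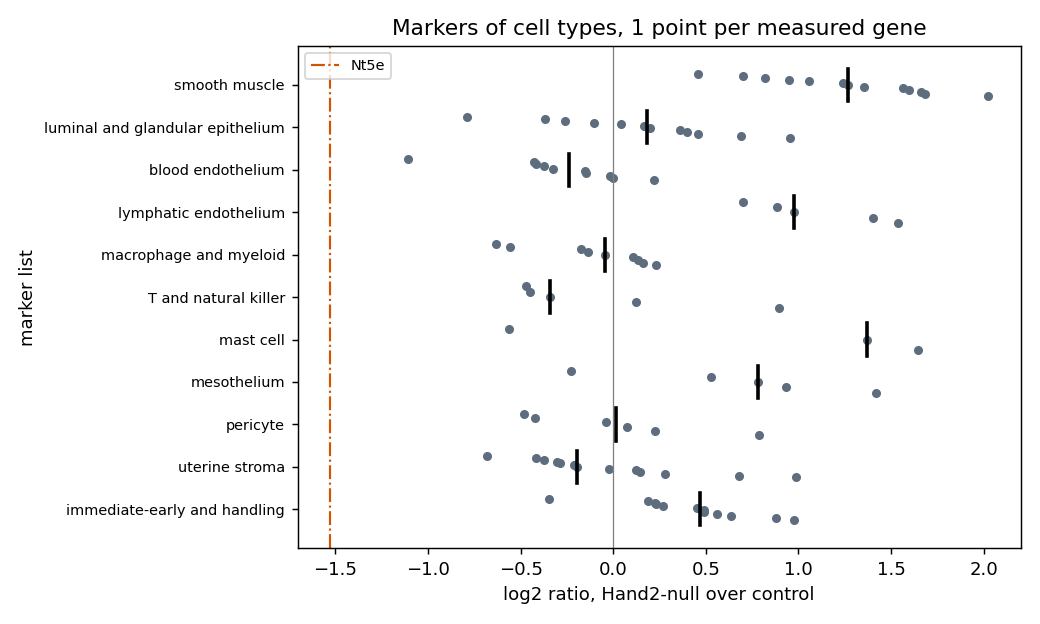
Log2 ratio of Hand2-null over control for the measured markers of 11 cell types or states, 1 point per gene, with the median of each list as a black bar and Nt5e as a dash-dotted line at -1.53. Values are after flooring. Smooth muscle, lymphatic, mast cell and mesothelial medians lie at 0.78 or higher, the mesothelial one resting on 3 of 5 genes under the control floor. Blood endothelial and stromal medians lie at -0.24 and -0.20. No marker plotted is as low as Nt5e, which was chosen with this contrast known.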

How the data were processed

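Total RNA of each genotype was pooled over mice and hybridized to 1 Affymetrix array, labelled with the 3' Express kit, per the labels' protocols. The authors deposited linear intensity values (MAS5 signal). The submitters' processing notes name MAS5 and Affymetrix Expression Console, version 1. With 2% trimmed from either end, the mean signal of both arrays was 150.001, so each was scaled to 1 target before deposit. Because MAS5 corrects for mismatch probes, dim probe sets give unsteady ratios. Detection calls were not used here, and precision is limited by the number of arrays.

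Of 45101 probe sets, 64 controls were left out, 34945 had 1 gene in the platform annotation of 2016, 932 had several and 9160 had none listed. The Entrez IDs of the 6 annotated members matched RefSeq (GRCm38.p6). Signals were put on a log2 scale, values under the floor were set to it, and a difference was counted from a log2 ratio of 1. The members, the lists and the rule for named genes were chosen with earlier results of these data known. The rule took Hand2, all members, purine genes with a 2-fold difference and the 2 largest others per role, the 2 brightest markers per list and the 4 genes nearest to Nt5e. Other genes named, such as Ampd2, Cdh5, P2rx7 and Adora3, were chosen after their values were seen.

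Alternatives were median centring, quantile normalization, loess (span 0.3), other floors (50th percentile, 75th percentile, none), a pseudo-signal of the floor's size, averaging a gene's probe sets, omitting those named _a_at, _s_at or _x_at, or (chosen after seeing the data) only _s_at and _x_at, and thresholds of 1.5-fold and 3-fold. The procedure was tested on simulated data whose only noise was the spread between probe sets of a gene, without variation between mice. Of genes given a true 2-fold difference 36% were counted as at least 2-fold, of 1.5-fold 4% and of 3-fold 96%. A true difference near 2-fold can thus be missed. Scripts ran in Python 3.11.15 with pandas 2.3.3, numpy 2.4.6, matplotlib 3.10.9, statsmodels 0.14.6 and scipy 1.17.1.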

Additional observations from a re-analysis of the deposited data

How the results depend on the processing

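The lower signal of Nt5e kept its direction under all 10 alternatives that give it a value, at log2 ratios from -1.54 to -1.02. Several of these could not change it, since only 1 probe set of Nt5e was measured. The lower floor, no floor, averaging and both omissions by suffix all left it at -1.53. It was -1.02 under a higher floor at the 75th percentile, where its Hand2-null signal was under the floor, and -1.12 with a pseudo-signal. With thresholds of 1.5-fold and 3-fold the members that were higher numbered 1 and 0, and those that were lower 1 and 0. The other purine genes that differed numbered 6 and 1. Over all 10376 measured genes 644 were higher and 345 lower at 1.5-fold, and 49 and 20 at 3-fold. With a pseudo-signal 2 other purine genes differed by 2-fold, Xdh being at 0.83. Over all 10376 measured genes 117 were then higher and 40 lower. The median of the measured members was -0.012 without probe sets named _a_at, _s_at or _x_at. Entpd2 was then not measured and Adk was read at 0.27. Slc29a1, which is not a member, was not measured there either. The members' median was 0.27 with only _s_at and _x_at left out, a choice made after seeing the data, since _a_at marks transcripts of 1 gene. Entpd1 ranged from 0.03 to 0.71, at 0.03 with the higher floor and 0.29 when its probe sets were averaged, while Ada, Adk and Entpd2 kept their direction wherever they were measured. With the floor at the 75th percentile Ada was not measured. With no floor 307 genes were at least 2-fold higher and 128 lower, of 10376 measured. With the higher floor these were 117 and 45, of only 7489 measured. No paired analysis was possible because each genotype has 1 array of pooled RNA. For the same reason no array was left out in turn. How far each signal lies over the floor limits the values most for Ada, Alpl, Entpd1 and the Hand2-null signal of Nt5e.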
